A study of Mus musculus with 6 samples.

Results

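The 1700 clones are mouse transcripts that still carry, on the array used here, the working name of a full-length cDNA clone from the RIKEN collection, in which the prefix 1700 marks an adult testis library. Members were all names that begin with 1700 and end with Rik, leaving out 6 names placed by the array annotation (mm9) in the stretch of chromosome 1 that stands for the transferred MRL segment. This gave 393 names, read by 469 probes, of 34797 names on the array. The choice used names and positions, and the brightest probe of a name, which was the probe with the highest mean over all 6 arrays, stood for it.

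Gene expression was measured in testes taken 10 days after the scrotum had been heated once to 43 °C for 20 min. The 3 B6 (C57BL/6) arrays came from wild-type mice. The 3 B6.MRLc1 arrays came from the congenic strain B6.MRLc1-(D1Mit202–D1Mit403), which carries an MRL segment of chromosome 1, from 67.97 to 81.63 cM, on the C57BL/6 background. All mice were 3 months old, all testes had been heated, and unheated testes were not analysed here, so the comparison is between strains after heat and gives no response to heat. By the series' design text 3 mice were used per strain, so an array was read as a mouse; the p-values measure the spread among these arrays only.

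Spermatogenesis runs from spermatogonia through meiotic spermatocytes to haploid round and elongating spermatids. Post-meiotic germ cells transcribe a large set of genes used in few other tissues, for the acrosome, the flagellum and the repackaging of chromatin, and many clones of testis cDNA collections come from such genes. The testis also makes many long noncoding RNAs, most of them without a known role. Heating the scrotum is known to kill germ cells, above all spermatocytes and early spermatids.

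Levels below are log2 processed signals relative to the 75th percentile of the same array, and a change is the mean level in B6.MRLc1 minus that in B6. A level is a property of 1 probe and does not rank transcripts by amount. A name was tested where its probe was well above background, by the scanner's flag, on at least 3 of the 6 arrays, and was called at an adjusted p under 0.05 in limma, with Benjamini-Hochberg adjustment over all 25122 names tested.

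The probes below read the members on which the results turn: a fall of a coding transcript, a fall of a sperm channel subunit, a member seen above background in B6 alone, a rise, and the brightest member, on the X chromosome. Each line gives the first 30 of the 60 bases of a probe, as the array annotation lists it, and no base is in capitals.
1700021F07Rik: tttgctgtaggcactgccatttgttggtgc
1700019N12Rik: cggtccctcgaacccaagctcaacctcatc
1700018B08Rik: ccatttgtcatttgttctgggactgaagtc
1700007K13Rik: atttcacacaggaaagatgctgacagcatc
1700011M02Rik: gtgtccaagttcttcaggagaggatgccaa

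In the array annotation (mm9), these probes lay at chr2:173353922-173353981 on the plus strand for 1700021F07Rik and chr19:6996935-6996994 on the minus strand for 1700019N12Rik. The probe of 1700018B08Rik spanned chr8:124054889-124055604 on the minus strand, which is longer than the probe itself. Those of 1700007K13Rik and 1700011M02Rik lay at chr2:28317523-28317582 on the minus strand and chrX:100104674-100104881 on the plus strand. The span given for 1700011M02Rik is also longer than its probe. Which exons the probes lie in was not analysed here.

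Of the 393 members, 262 were tested. The other 131 were not: 88 had no array well above background and 43 had only 1 or 2. Through RefSeq (GRCm38.p6), 247 members were matched by accession and 96 by symbol or synonym, and 50 were not matched. RefSeq classes 166 members as protein coding, 163 as lncRNA, 10 as transcribed pseudogenes and 4 as other kinds. The array's own text was a RefSeq record for 269 members, an adult testis cDNA for 80, a cDNA of another tissue for 35 and other text for 9.

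The 1700 clones were mostly lower in B6.MRLc1. The fitted change was below 0 in 195 of the 262 tested members, or 74.4%, where 46.9% of all names tested lay below 0. The median change was -0.46 over the members and 0.01 over all names. The test called 58 members lower, which is 22.1% of those tested, against a background of 2.21% of all names called lower. It called 3 members higher, or 1.15%, against 0.386%. In either direction, 2.6% of all names were called. All B6.MRLc1 arrays lay below all B6 arrays in 130 members, or 49.6%, against 14.2% of all names, and above them in 12, or 4.58%, against 14.3%.

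Of the 58 members called lower, 47 had fallen at least 2-fold on this scale. In bulk tissue, fewer cells of a type and less RNA per cell cannot be told apart. The number called depended on single arrays: it was 5, 19 and 31 without B6 array 1, 2 or 3 and 7, 1 and 38 without B6.MRLc1 array 1, 2 or 3. In each of these fits limma called 0 members higher, with 5 to 15 higher at an unadjusted p under 0.05, and the share below 0 ran from 72.9% to 78.6%. Calls over all names fell as well, to 47 to 471 names in either direction over the 6 fits, from 653 with all arrays. Of all names, 0.155%, 0.617% and 1.56% were called lower without B6 array 1, 2 or 3, against 2.21% with all arrays. At an unadjusted p under 0.05 the fit of all arrays gave 135 members lower and 7 higher.

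**Figure D1:**
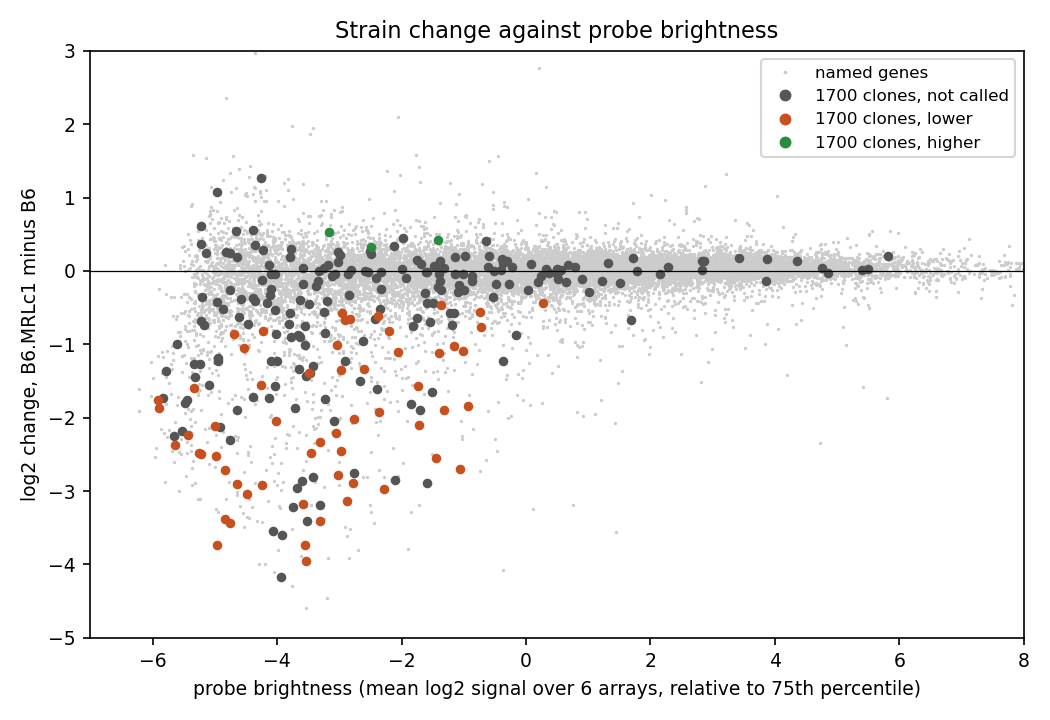
Fitted log2 change (B6.MRLc1 minus B6) against probe brightness, the mean log2 signal over the 6 arrays relative to the 75th percentile. Grey points are named genes and larger points are the 262 tested 1700 clones by call: the 58 called lower lie mainly at dim to middle brightness, and 3 were called higher.

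The filter on dim probes bears on these counts. Of the tested members, 32 were well above background on all B6 arrays and on no B6.MRLc1 array, and none the other way round; a member that passed in that way had to differ. The B6.MRLc1 arrays also had fewer spots well above background, 58.0% to 64.7% against 68.5% to 69.0%, and their lowest signal well above background was higher, -5.31 to -4.49 against -5.76 to -5.67. On the B6.MRLc1 arrays 63.4%, 74.0% and 85.1% of the tested members were well above background, against 99.2% on each B6 array. All 6 arrays lay on 1 slide, B6 in row 1 and B6.MRLc1 in row 2, so the row on the slide and the strain cannot be told apart.

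Among the 162 members well above background on all 6 arrays, 66.0% had a change below 0 and the median was -0.14. In this set 27 members were called lower, or 16.7%, against 1.47% of the names that met the same condition, and 3 were called higher, or 1.85%, against 0.41%. Without 1 array, 0 to 15 of these 162 members were called lower, in fits that also called fewer of all names. Of the 58 members called lower, 27 were thus measured on every array, 13 were well above background on 1 or 2 B6.MRLc1 arrays, and 18 on none.

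Settings that treat dim signals otherwise gave smaller changes. With normexp background correction 61 members were called lower and 3 higher, against 2.44% and 1.06% of all names, and the median change was -0.15. Of the 58 members called lower on the processed signal, all 58 had a change below 0 with normexp and 44 were called. With dim values raised to the lowest signal well above background of their array, 43 members were called lower and 1 higher, against 1.55% and 0.338%. With quantile scaling, 52 were called lower and 3 higher, against 1.89% and 0.41%. Over all names, normexp shifted the split to 267 higher and 612 lower, from 97 higher and 556 lower.

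Probe brightness was compared next, since the changes of all names also depended on it. The tested members were divided into 5 bins of equal size by mean level over the arrays, and named genes, those whose name is no clone, model or accession, were placed in the same bins. From the dimmest bin to the brightest, the share of members with a change below 0 was 83.0%, 86.5%, 78.8%, 76.9% and 47.2%. The share of named genes was 65.3%, 61.9%, 56.2%, 53.9% and 40.5%. Members lay further to the lower side in each of these 5 bins, and the gap was smallest in the brightest. With the bins weighted as the members fill them, 55.5% of named genes lay below 0, against 74.4% of members.

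The share called lower was also above that of named genes in each of the 5 bins. Going from dim to bright, 32.1%, 17.3%, 32.7%, 23.1% and 5.66% of members were called lower, against 7.11%, 4.35%, 4.4%, 4.07% and 0.925% of named genes. The weighted share of named genes called lower was 4.17%, against 22.1% of members. With 10 bins the weighted share of named genes below 0 was 56.1%, and in the brightest bin the order turned: 37.0% of 27 members lay below 0 and 0 were called lower, against 38.2% and 0.71% of named genes. With bins set on the B6 mean alone, a choice made after seeing the data, it was 53.3%, and 3.64% were called lower.

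**Figure D2:**
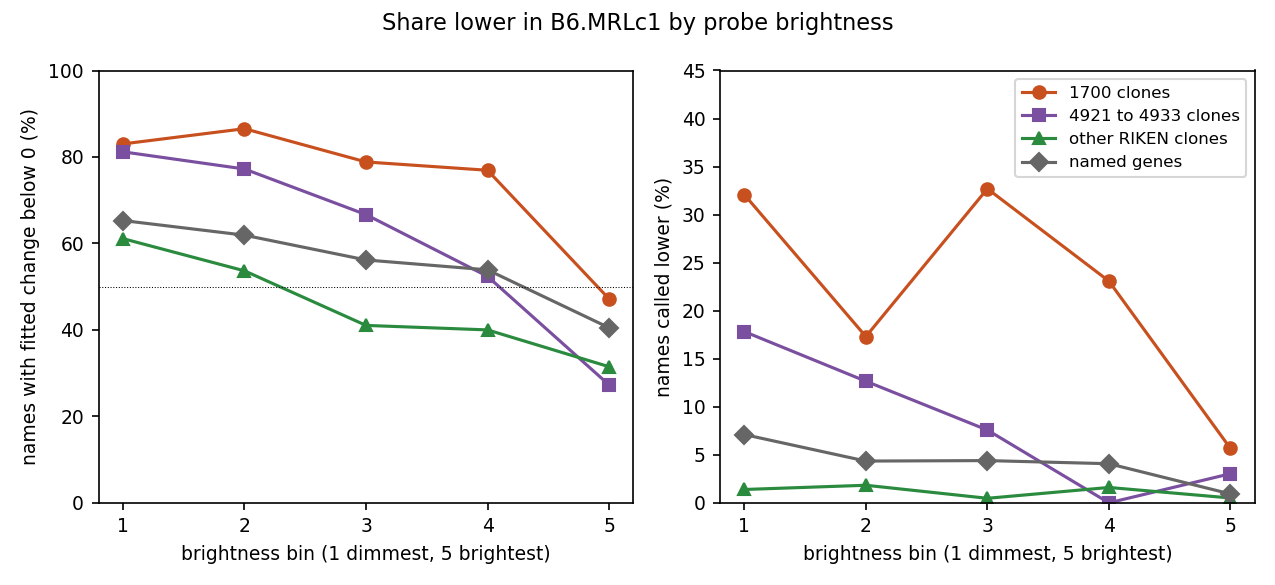
Share of names with a fitted change below 0 (left) and share called lower (right), in percent, in 5 bins of probe brightness set at the quintiles of the tested 1700 clones, for 1700 clones, clones of further testis libraries (purple, prefixes in the legend), other RIKEN clones and named genes. The 1700 clones lie above named genes in every bin, from 83.0% against 65.3% in the dimmest to 47.2% against 40.5% in the brightest on the left.

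RIKEN clones with the prefixes of further testis libraries had 357 names tested, of which 64.1% lay below 0, with a median of -0.11. Of these, 36 were called lower, or 10.1%, and 0 higher by limma, with 17 higher at an unadjusted p under 0.05. Weighted to the brightness of the 1700 clones, 60.9% lay below 0 and 8.23% were called lower. All other RIKEN clones, 1374 names, had 550 (40.0%) below 0, 13 (0.946%) called lower, 6 (0.437%) called higher and a median of 0.04. Weighted in the same way, 45.5% of them lay below 0 and 1.16% were called lower. The difference between these groups of clones was not tested.

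Each array of a strain lay on the same side for the members as a group. Taken as the median over tested members of the deviation from each member's mean, the score was 0.35, 0.19 and 0.22 on B6 arrays 1 to 3 and -0.29, -0.24 and -0.14 on B6.MRLc1 arrays 1 to 3. The scores of the strains did not overlap. For the 162 members well above background on all arrays, the scores were 0.07, 0.04 and 0.13 in B6 and -0.12, -0.10 and -0.05 in B6.MRLc1. B6.MRLc1 array 3 was the highest of its group in 127 of the 262 members and the lowest in 47. The median SD among replicates was 0.23 in both strains.

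Members with a coding transcript made up most of those called lower. Of 148 tested protein-coding members, 121 (81.8%) had a change below 0, 45 were called lower, 1 was called higher, and the median was -0.89. Of 77 tested lncRNAs, 51 (66.2%) lay below 0, 10 were called lower and 2 higher, and the median was -0.12. On the array, the share called lower was 2.46% for protein-coding names and 3.14% for lncRNA names that are no 1700 clones. Among members well above background on all 6 arrays, 22 of 88 coding members were called lower and 1 higher, with a median of -0.26, and 3 of 55 lncRNAs were called lower and 2 higher, with a median of -0.02. With normexp the medians of all tested coding and lncRNA members were -0.29 and -0.01.

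The other classes were small. Of 8 transcribed pseudogenes, 2 were called lower, and of 25 tested members with no RefSeq match, 1. Without 1 array, 1 to 25 coding members and 0 to 7 lncRNAs were called lower, in fits that also called fewer of all names. The difference between the classes was not tested.

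**Figure D3:**
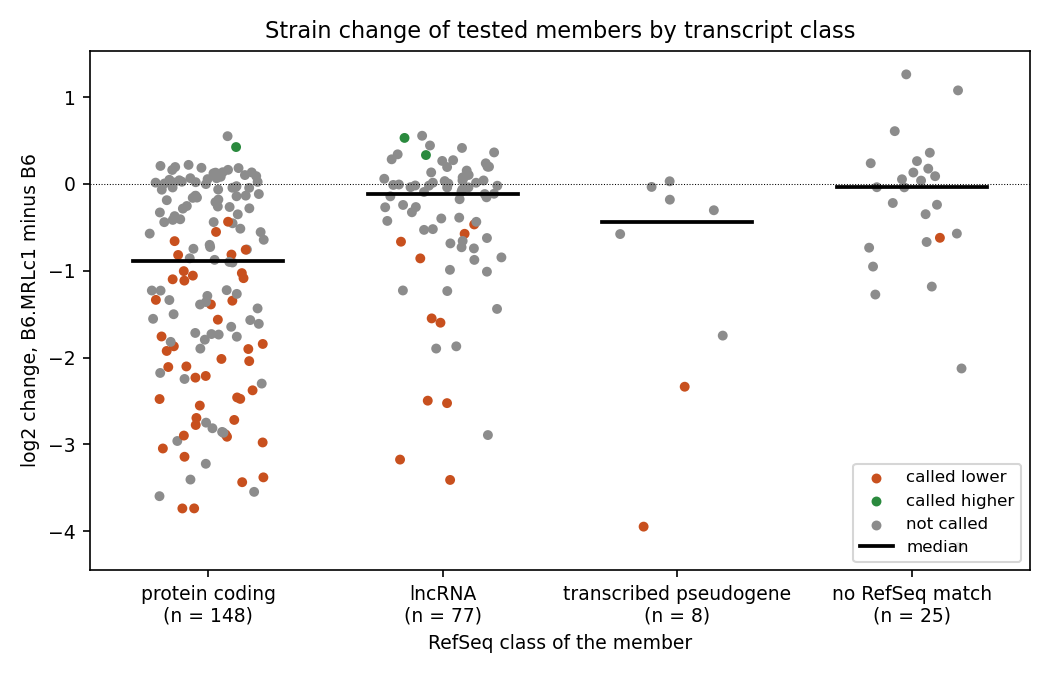
Fitted log2 change (B6.MRLc1 minus B6) of each tested 1700 clone by its RefSeq class, one point per member and a bar at the median. Protein-coding members have a median of -0.89 and lncRNAs one of -0.12, and orange points were called lower, green ones higher.

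The array's text placed few of the calls among clones without a curated record. Of 207 tested members with a RefSeq record as their text, 55 were called lower and 3 higher. Of 29 tested members whose text names an adult testis cDNA, 1 was called lower, and of 20 with a cDNA of another tissue, 1. At an unadjusted p under 0.05, 12 of the 29 were lower. All B6.MRLc1 arrays lay below all B6 arrays in 48.3% of the 29, 15% of the 20 and 54.1% of the RefSeq-record members, against 14.2% of all names. The share of the 20 was thus near that of all names. The testis cDNA members were also dimmer, with a median level of -3.93 against -2.83 for RefSeq-record members. The difference between these groups was not tested. In the texts of members outside the RefSeq coding and noncoding accessions, the product read "unclassifiable" for 61 (28 tested, 1 called lower) and "hypothetical protein" for 20 (8 tested, 1 called lower). It gave no product for 53 (24 tested, 1 called lower) and another text for 8 (4 tested, 0 called by limma).

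Of the members called lower that were well above background on at least 2 arrays of each strain, 1700021F07Rik, a coding member on chromosome 2, changed most. Its levels were -0.30, -0.93 and -1.15 in B6 and -3.83, -4.01 and -3.47 in B6.MRLc1, with every B6.MRLc1 array far below every B6 array. It fell by 2.98 on the log2 scale (SE 0.25, limma adjusted p = 0.017), and with normexp by 2.02.

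1700019N12Rik is Catsperz, an accessory subunit of CatSper, the calcium channel of the sperm flagellum. Its levels were 0.70, -0.26 and 0.44 in B6 and -2.90, -2.38 and -1.93 in B6.MRLc1. The groups were well apart, and the change was -2.70 (SE 0.34, limma adjusted p = 0.0269). With normexp the change was -2.18. The call was kept in 2 of the 6 fits that leave out 1 array, and that of 1700021F07Rik in 4.

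Other coding members that fell have symbols that tie them to sperm or to no known role. 1700008P20Rik is Tescl, a relative of the calcium-binding protein tescalcin. Its levels were -0.89, -1.37 and -1.75 in B6 and -4.36, -4.93 and -3.38 in B6.MRLc1, a change of -2.89 (SE 0.43, limma adjusted p = 0.0383). 1700016M24Rik is Mroh4, of a family of HEAT-repeat proteins. Its levels were 0.25, -0.86 and 0.10 in B6 and -3.03, -2.39 and -2.75 in B6.MRLc1, a change of -2.55 (SE 0.33, limma adjusted p = 0.0298). In both genes the strains did not overlap.

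Stpg4 (1700011E24Rik), named for the PG-rich repeats of a sperm-tail protein, had levels of -0.30, -1.07 and -0.65 in B6 and -3.19, -2.58 and -2.56 in B6.MRLc1. Its change was -2.10 (SE 0.26, limma adjusted p = 0.0267). Spata25 (1700020C07Rik), named as associated with spermatogenesis, had levels of -1.03, -1.97 and -2.24 in B6 and -4.00, -4.39 and -4.23 in B6.MRLc1. It changed by -2.46 (SE 0.32, limma adjusted p = 0.0301). Tex33 (1700061J05Rik), named as testis-expressed, had levels of 0.12, -0.44 and -0.76 in B6 and -2.38, -2.58 and -1.83 in B6.MRLc1, a change of -1.90 (SE 0.29, limma adjusted p = 0.039). None of these groups of arrays overlapped.

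Of the 12 members called lower with the largest changes under this condition, the remaining 5 were Fam166c (1700001C02Rik, -2.48), the transcribed pseudogene 1700049L16Rik (-2.34), 1700001P01Rik (-2.21), 1700019N19Rik (-2.02) and 1700019A02Rik (-1.92). Their limma adjusted p ran from 0.0205 to 0.0417. In all 5, each B6 level was above each B6.MRLc1 level. The 12 were chosen by calls on these same arrays, which favours such a separation. Of the 12, Fam166c, 1700019A02Rik and Tex33 were called in none of the 6 fits without 1 array. With normexp all 12 kept the direction and the call. Changes as large were also seen in 4 members that met the same condition and were not called, 1700018F24Rik (-3.22), the lncRNA 1700008K24Rik (-2.89), 1700013F07Rik (-2.87) and Tmem247 (-2.86), with limma adjusted p from 0.0515 to 0.0677.

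**Figure D4:**
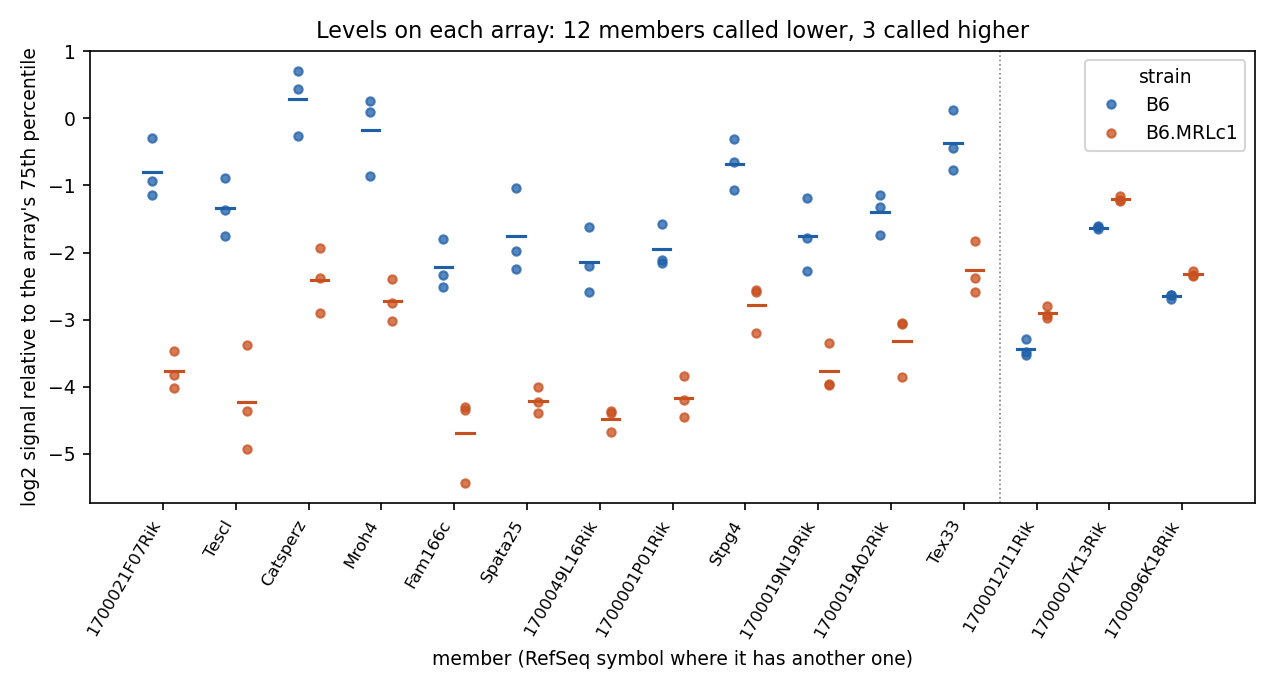
Log2 signal relative to the 75th percentile of each array, one point per array and a bar at the mean, for the 12 members with the largest falls among those called lower and well above background on at least 2 arrays of each strain and, right of the dotted line, the 3 members called higher. Blue points are B6 and orange points B6.MRLc1. The strains do not overlap in any of the 15 members, which were chosen by their calls on these same arrays.

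Members called lower whose probe was at or near background on all B6.MRLc1 arrays have only a bound there. For these the B6 mean was set against a B6.MRLc1 mean in which any value under the array's lowest well-above-background signal was replaced by that signal. Such a bound could be given for 16 of the 18 and ran from at least 1.32-fold to at least 4.15-fold higher in B6. With normexp 8 of the 18 were called.

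All 18 passed the filter through the B6 arrays alone, so a difference was built into their choice, and their p-values are given as a description. 1700018B08Rik, on chromosome 8, had the smallest. Its levels were -2.87, -3.16 and -2.95 in B6 and -5.16, -4.90 and -5.04 in B6.MRLc1, with little spread in either strain. Its level in B6 was at least 3.52-fold higher (limma adjusted p = 0.00569), with normexp the change was -0.60, and with the floor it was -1.82 (adjusted p = 0.02). It was called in all 6 fits without 1 array, and of the other members called lower 10 were called in none.

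1700129C05Rik, on chromosome 14, was at least 3.58-fold higher in B6 (limma adjusted p = 0.0149), at -2.51, -3.46 and -3.32 in B6. Cfap206 (1700003M02Rik), a protein of cilia and flagella, was at least 3.92-fold higher (limma adjusted p = 0.0267), at -2.45, -3.25 and -3.20 in B6. Spata45 (1700022P22Rik), which lies on chromosome 1 outside the segment, was at least 3.44-fold higher (limma adjusted p = 0.0269), at -2.72, -3.07 and -3.68. In all 3 the B6 levels were above every B6.MRLc1 level, and their choice likewise favoured such a separation. With dim values raised to the floor, from which these bounds come, limma no longer called 1700129C05Rik (adjusted p = 0.0549) or Spata45 (0.0552) and still called Cfap206 (0.0424). 1700006A11Rik was at least 1.54-fold higher (limma adjusted p = 0.0193), and it was called neither with normexp (adjusted p = 0.14) nor with the floor (0.208).

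No fold is given for 1700017N19Rik and 1700012P22Rik, whose B6 levels were too near background for a bound above 1. With dim values raised to the floor, their changes turned to 0.09 and 0.02.

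The 3 members called higher had small changes with little spread. 1700007K13Rik, coding, was at -1.61, -1.66 and -1.62 in B6 and -1.16, -1.22 and -1.23 in B6.MRLc1, a change of 0.42 (SE 0.05, limma adjusted p = 0.0267). The lncRNA 1700012I11Rik was at -3.48, -3.29 and -3.52 in B6 and -2.80, -2.98 and -2.93 in B6.MRLc1, a change of 0.53 (SE 0.09, limma adjusted p = 0.0464). The lncRNA 1700096K18Rik was at -2.63, -2.69 and -2.63 in B6 and -2.35, -2.34 and -2.27 in B6.MRLc1, a change of 0.33 (SE 0.05, limma adjusted p = 0.0436). The strains did not overlap in any of them, and their choice by call favours this. Each lost its call whichever array was left out. 1700096K18Rik also lost it with normexp (limma adjusted p = 0.0582) and with the floor (0.0515), and 1700012I11Rik with the floor (0.0518).

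The brightest members were not called. The brightest probe was that of 1700011M02Rik, an X-linked lncRNA in RefSeq, at 5.55, 5.72 and 5.87 in B6 and 5.85, 5.88 and 6.01 in B6.MRLc1, a change of 0.20 (SE 0.10, limma adjusted p = 0.336). The groups overlapped. Its lncRNA class came from a match of symbol or synonym, whereas the array lists a RefSeq record of the coding kind for it. The next were 1700028B04Rik (change 0.03), a transcribed pseudogene that the array text likens to an NADH-ubiquinone oxidoreductase subunit, the X-linked lncRNA 1700018G05Rik (0.01), and the pseudogene 1700073E17Rik (-0.04). After them came Tslrn1 (1700019B21Rik, 0.04), an X-linked lncRNA, and Rubcn (1700021K19Rik, 0.13), which codes for an inhibitor of autophagy.

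Of the 6 brightest members, 3 were X-linked. Of 15 tested X-linked members, limma called 0, with 4 lower at an unadjusted p under 0.05, and 10 lay below 0, with a median of -0.41. On the autosomes 58 of 242 tested members were called lower and 3 higher, with a median of -0.54. The difference between X and autosomes was not tested, and 5 tested members had no position or lay elsewhere.

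RefSeq now gives another symbol to 98 members. Of 85 tested, 26 were called lower and 0 higher by limma, with 0 higher at an unadjusted p under 0.05. The median was -0.66, against -0.41 for the 177 tested members without a new symbol, of which 32 were called lower. Without 1 array, 0 to 13 of the 85 were called lower, in fits that also called fewer of all names.

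Members with a Spata, Spaca, Spatc or Tex symbol, a group without Catsperz and Stpg4, numbered 12, of which 11 were tested. Of these, 7 were called lower, 10 lay below 0, and the median was -1.84. Spata45, which passed the filter through the B6 arrays alone, is among those called lower. The smallest adjusted p were those of Tex45 (1700019B03Rik) and Spatc1l (1700027D21Rik). Tex45 was at -3.77, -3.72 and -3.96 in B6 and -4.52, -4.64 and -4.74 in B6.MRLc1, a change of -0.81 (SE 0.09, limma adjusted p = 0.0242); it was not called with normexp (adjusted p = 0.117). Spatc1l, a relative of the sperm centrosome protein speriolin, was at -2.44, -2.54 and -2.53 in B6 and -3.28, -3.06 and -3.15 in B6.MRLc1, a change of -0.66 (SE 0.08, limma adjusted p = 0.0242). Tex44 and Tex30 in the same group had changes of -0.04 and 0.01 and were not called.

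Of 6 tested members of the cilia and flagella group (Cfap), 1, Cfap206, was called lower, and the median was -1.01. Cfap161 had a change of -1.29 (limma adjusted p = 0.0908) and Cfap77 one of 0.18. Of 4 tested histone genes of the H2A and H2B families, limma called 0, with 3 lower at an unadjusted p under 0.05. Their changes were -3.60 for H2bl1 (limma adjusted p = 0.108), -1.61 for H2al1m, -0.44 for H2ap and 0.19 for H2bfm. H2A and H2B variants of this kind take part in the remodelling of spermatid chromatin. Whether a probe also reads close relatives of its gene was not tested.

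Some members lie on the strand opposite a named gene, and the array's probes read 1 strand. Of 10 such members 8 were tested and 2 called lower. Kcnmb4os1 (1700058G18Rik) changed by -3.41 (limma adjusted p = 0.03), whereas Kcnmb4, which codes for a subunit of a calcium-activated potassium channel, changed by 0.05 (SE 0.05, limma adjusted p = 0.651). Med9os (1700013G23Rik) changed by -0.47 (limma adjusted p = 0.0301), and Med9, a Mediator subunit gene, by 0.14 (SE 0.07, limma adjusted p = 0.352). These pairs are those of the 2 members called, and the gene opposite was called in neither. Over the 8 tested members the median was -0.09, with 5 below 0 and changes from -3.41 to 0.44. The difference within a pair was not tested.

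Some members had several probes, and these were compared in a fit of all 36626 probes kept. Of 40 members with at least 2 tested probes, 31 had all of them on 1 side of 0 and 9 on both sides, and in 6 the changes differed by over 1. The 3 members below differed most, and the stretches of 30 bases show how their probes differ. Capitals mark the 19 bases that the probes of 1700003F12Rik share and a run of 25 bases of alternating T and G in a probe of 1700110I01Rik; the first probe of each name is its brightest.
1700010M22Rik, brightest probe: ctgcagacactgtcttcatcatccctgact
1700010M22Rik, other probe: agttcctgctgatgtgtacctttgctggga
1700003F12Rik, brightest probe: tttcagTGGCGAGAGGCTCCTGACCctgcc
1700003F12Rik, other probe: agaagccaagtTGGCGAGAGGCTCCTGACC
1700110I01Rik, brightest probe: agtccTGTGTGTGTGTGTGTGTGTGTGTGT
1700110I01Rik, dimmest probe: atcaagcaaagaaataaaccctgacaggtt

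The probes of 1700010M22Rik lay on different chromosomes in the array annotation (mm9). The brighter one, at chr5:17856472-17856531 on the plus strand, carries only a cDNA accession and changed by -0.64 (SE 0.11, limma adjusted p = 0.0597 over probes). The dimmer, at chr2:144650085-144650144 on the plus strand, carries the RefSeq accession of Scp2d1 and changed by -4.38 (SE 1.03, limma adjusted p = 0.11). The RefSeq symbol thus belongs to the dimmer probe, and the counts above use the brighter.

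The probes of 1700003F12Rik lay on chromosome 2. The brighter, at chr2:154375062-154375121 on the plus strand, changed by -0.04 (SE 0.07). The dimmer, whose annotation spans chr2:154374763-154375090 on the plus strand, changed by -2.71 (SE 0.46, limma adjusted p = 0.0567). It passed the filter through the 3 B6 arrays alone, so a difference was built in and its size is not measured. For 1700110I01Rik the brightest probe, at chr14:3305155-3305214 on the plus strand, changed by 0.13 and the dimmest, at chr14:3304995-3305054 on the plus strand, by -1.61 (SE 0.45, limma adjusted p = 0.147). The dimmest also passed the filter through the 3 B6 arrays alone. The probe between them in brightness, at chr14:3270761-3270820 on the plus strand, changed by 0.03 (SE 0.21). It was well above background on all 6 arrays, and its longest run of alternating bases was 3. Probes with a run of at least 8 TG or CA units were bright as a class: 110 of 55681 probes had 1, with a median level of 4.05 against -3.53 over all probes. Of these 110, 1 belonged to a member, and it is the brightest probe of 1700110I01Rik.

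**Figure D5:**
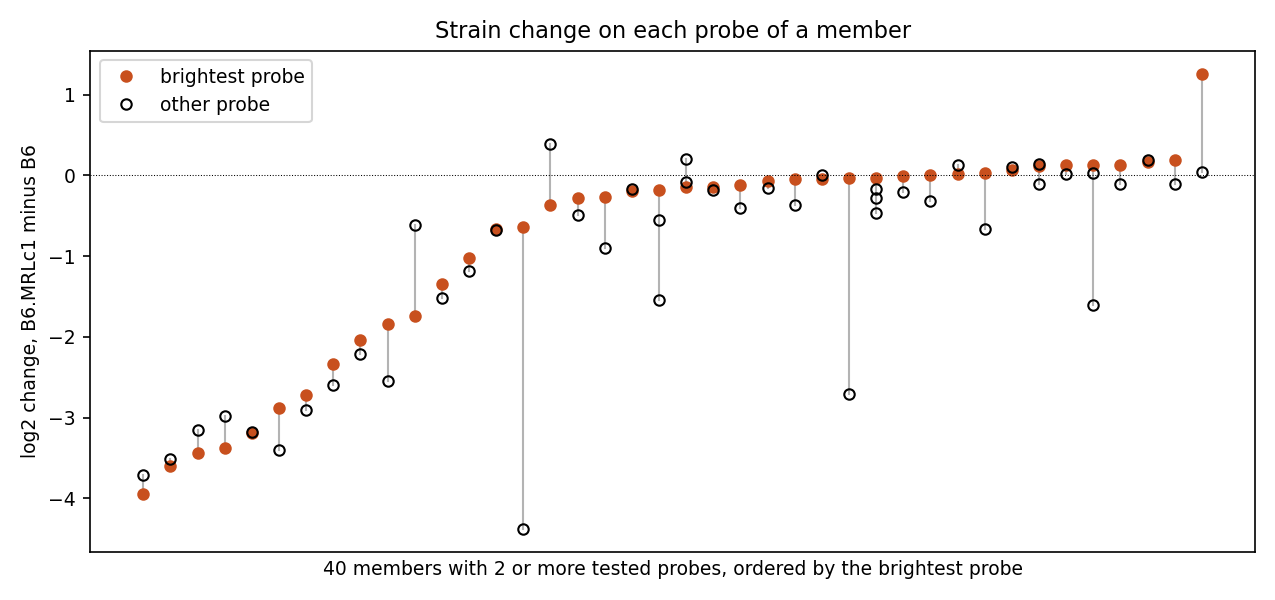
Fitted log2 change (B6.MRLc1 minus B6) of each tested probe for the 40 members with at least 2 tested probes, ordered by the change of the brightest probe (filled); open points are other probes and a grey line joins those of a member. In 31 of the 40 members all probes lie on 1 side of 0.

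RefSeq promoters (GRCm38.p6; 250 bases before to 50 after the start) were listed for 271 members, 45 of them called lower. The RFX half-site GTTGCCA, on either strand, is of interest because RFX factors act at genes of cilia and flagella. It was present in 29 of the members' 271 promoters, in 5 (11.1%) of those called lower, in 11.6% of those tested but not called lower, and in 4.46% of all 27025 promoters. The cAMP response element TGACGTCA was in 1.85% of the members' promoters and in 1.88% of all, and in 0 of the 45 called lower. The MYB motif GGCAGTT was in 6.27% and 4.14%, and TATAAA in 9.96% and 14.2%. No motif searched contains another, both strands were read, and a match describes letters only.

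The promoters of 3 members called lower that hold the RFX half-site are shown up to the base before the start, with GTTGCCA or its reverse complement in capitals, so that its place and surroundings can be compared.
1700021F07Rik: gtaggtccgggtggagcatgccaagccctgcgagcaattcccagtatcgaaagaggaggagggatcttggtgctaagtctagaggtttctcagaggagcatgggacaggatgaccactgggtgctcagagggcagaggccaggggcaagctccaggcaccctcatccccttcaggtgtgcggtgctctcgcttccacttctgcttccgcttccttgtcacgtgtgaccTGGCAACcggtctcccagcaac
Spaca9: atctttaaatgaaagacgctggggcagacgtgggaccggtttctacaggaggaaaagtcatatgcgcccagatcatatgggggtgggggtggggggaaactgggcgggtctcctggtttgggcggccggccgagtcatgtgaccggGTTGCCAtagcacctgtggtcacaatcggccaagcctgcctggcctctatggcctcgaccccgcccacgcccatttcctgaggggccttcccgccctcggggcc
Tex33: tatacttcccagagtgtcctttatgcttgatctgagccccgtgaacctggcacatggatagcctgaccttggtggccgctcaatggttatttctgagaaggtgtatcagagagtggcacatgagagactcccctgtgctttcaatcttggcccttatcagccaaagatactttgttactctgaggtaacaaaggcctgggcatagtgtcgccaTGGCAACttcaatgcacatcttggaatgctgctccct

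These stretches lie in GRCm38.p6 at chr2:173522342-173522591 on the plus strand for 1700021F07Rik, chr2:28699652-28699901 on the minus strand for Spaca9 (1700026L06Rik) and chr15:78395913-78396162 on the minus strand for Tex33. Counted from the first base shown, the match begins at base 229, 147 and 214. Spaca9, an acrosome-associated protein, changed by -1.84 (SE 0.29, limma adjusted p = 0.0424).

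Markers of cell types moved beside the members. Of 19 tested markers of round spermatids and the acrosome, 8 were called lower and 0 higher, with a median of -1.38, and their summed level (linear, in units of the 75th percentile) was 8.78 to 11.2 in B6 and 4.87 to 5.50 in B6.MRLc1. Of 22 markers of elongating spermatids, 6 were called lower and 0 higher, with a median of -1.86. Their summed level was 22.6 to 56.3 in B6 and 5.94 to 11.5 in B6.MRLc1, and for all 22 the strains did not overlap. Of all names, 2.21% were called lower and 14.2% were lower without overlap. Markers of spermatocytes (15 tested, 2 called lower) and spermatogonia (12 tested, 1 called lower) had medians of -0.09 and -0.04, with 12 and 7 below 0. At an unadjusted p under 0.05, 5 and 3 were lower and 1 and 0 higher. Spermatocyte markers summed to 31.8 to 38.4 in B6 and 26.1 to 30.7 in B6.MRLc1, and among them Ldhc changed by -3.18. Spermatogonia markers summed to 34.0 to 36.1 in B6 and 34.6 to 37.0 in B6.MRLc1. Those of Sertoli, Leydig and peritubular myoid cells had medians of 0.10, 0.17 and 0.16.

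Limma called 0 of these somatic markers, with 2, 3 and 3 higher at an unadjusted p under 0.05. Macrophage (7 tested) and endothelial markers (6 tested) had medians of -0.17 and -0.09, with 6 and 5 below 0 and 0 called by limma. At an unadjusted p under 0.05, 1 macrophage marker was higher and 2 endothelial markers were lower. Of 4 red cell markers tested, 1, Alas2, was called lower (change -1.04, limma adjusted p = 0.00849), and their median was 0.47. Adipocyte markers had a median of 1.07 over 6 tested, summed to 3.78 to 6.30 in B6 and 6.94 to 14.3 in B6.MRLc1, with 5 higher at an unadjusted p under 0.05 and 0 called. Of 8 epididymis markers, Lcn8, Lcn9, Adam7, Rnase9 and Crisp4 did not stand well above background on a single array. The 2 tested were well above background on all 6 arrays, Cst8 with a change of 0.60 (limma adjusted p = 0.241) and Wfdc15a with one of -0.53 (limma adjusted p = 0.146). The tested epididymis markers summed to 10.9 to 19.5 in B6 and 18.6 to 24.8 in B6.MRLc1. The part of these cell types in the levels of the members was not tested.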

How the data were processed

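Per the labels' protocols, the authors labelled 0.1 ug of column-purified total RNA with Cy3 for single-colour Agilent arrays. Per the file headers, the deposited intensity of a spot is linear, background-subtracted and detrended, not scaled between arrays, and stands beside flags (0 or 1) for outliers, saturation and signal well above background. Feature Extraction 10.7.3.1 and build mm9 stand in these headers, and version 9.5.3 in the submitters' processing notes. The deposited series table holds log2 values, used as an alternative only; at least 99.9% of its cells lay within 0.05 of the scaled signal centred on each probe's median, and its column medians ran from -0.00405 to 0.0161. No source used here gives how the authors made it.

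Outlier spots (105 to 147 of 59305 an array) and control spots were left out, processed intensity was divided by each array's 75th percentile (558.0 to 666.4), log2 was taken, and spots of a probe were averaged. No spot of an array was saturated. The number of arrays limits the precision. Probes needed values on 4 arrays and over 0.5 of their spots well above background on 3. All names were compared in limma 3.58.1 (R 4.3.3) with lmFit and eBayes, which was tested on simulated data.

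Members and lists were chosen with earlier results of these data known. The members named were the 12 called lower with the largest changes among those well above background on 2 arrays of each strain, up to 6 called lower without signal in B6.MRLc1, up to 6 called higher, the 6 brightest, up to 5 called without any 1 array, up to 5 with a new symbol and the 3 whose probes differed most. Families, opposite-strand pairs, marker genes, larger changes that were not called, and Spaca9 and Kcnmb4 among them, were named outside this rule, after their values were seen. Alternatives were normexp (offset 50), quantile scaling, a floor, other filters, the deposited log2 values, a variance trend, the mean over probes, current symbols, the segment kept, a replicate block and each array left out.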

Additional observations from a re-analysis of the deposited data

How the results depend on the processing

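The fit of all arrays called 653 names, with 58 members lower, 3 higher, a median change of -0.46 and 74.4% below 0. The median was -0.15 with normexp, -0.31 with the floor, -0.30 with no filter on dim probes (393 members), -0.14 with names well above background on all 6 arrays and -0.22 with the deposited values; in the same order without the floor the share below 0 was 67.9%, 65.4%, 66.0% and 68.3%. Called lower with no filter were 3 of 393 members, against 0.109% of all names. Where all arrays had to be well above background, it was 36 of 162, against 1.82%. With the deposited values it was 29 of 227, against 1.33%. Called higher were 1 with the floor and 0 with no filter. All names called numbered 50 with no filter and 1186 with a variance trend. Leaving out 1 array gave 1 to 38 members lower, 0 higher, medians from -0.55 to -0.37, shares from 72.9% to 78.6% and 47 to 471 names called; each such fit has fewer samples, and the cause of the other shifts was not tested. For 1700017N19Rik and 1700012P22Rik the floor turned the change to 0.0942 and 0.018. Of the single-member values under all alternatives, 331 stayed on their side of the threshold, 324 of them with the same sign and 7, all of uncalled members, with the other; 160 lost the call and 4 gained it, and the 2 just named changed sign. With current symbols, the mean over probes or the segment kept, 59, 59 and 61 members were called lower.

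With the replicate number as a block, 24 names were called, 2 members lower and 0 higher. Deviations of arrays with the same number correlated at -0.04, 0.17 and 0.09 over names, and not every array correlated best with its own number, so the numbers were not taken as pairs.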
